A study of Vanessa cardui and Junonia coenia with 16 samples.

Results

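A set of 128 transcript clusters of the common buckeye butterfly, Junonia coenia, was lower in every wing labelled as an optix knockout than in every wild-type wing. The clusters are components of a transcriptome assembly, groups of assembled rows that share the DN and c numbers of their identifier, and the table held 124280 of them, 46698 above 0 in at least 1 library. Abundance was the sum of FPKM over a component's rows, that is of fragment numbers divided by transcript length and by the size of the library. A component belonged to the set when its sum was at least 5 FPKM in all 4 wild-type libraries and when its lowest wild-type value lay at least 1 above its highest knockout value on the scale log2(sum + 1). That distance is called the gap here, and at most 150 components would have been kept. The set was therefore chosen on the knockout and wild-type values themselves, and the differences between the genotypes are given as a description without a test.

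The optix gene encodes a homeodomain transcription factor that acts in developing wing scales of butterflies. It is known for promoting the orange and red ommochrome pigments, in contrast to the dark melanins, and in some species it also bears on scale structure and iridescence. Ommochromes are made from tryptophan and melanins from tyrosine, and both appear in the wing late in pupal life. No gene names accompany the identifiers, and 0 of them were found in the reference gene table, so the members are named by their identifiers and their functions are not given. For the same reason optix itself, pigment genes and markers of wing cell types are not analysed here, the label alone gives each library its genotype, and no sequence is printed.

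There were 4 groups of 2 libraries each, knockout hindwings, knockout forewings, wild-type hindwings and wild-type forewings, all sampled at the stage the labels name for melanin and reared at 27 °C from a laboratory colony. For the knockout forewings the labels add large defects, and for the knockout hindwings they say no more than optix knockout. How the knockouts were made and which share of their cells lacked optix are not given in the labels of these 8 libraries. The other 8 libraries of the series are from another butterfly, Vanessa cardui, and were not used here.

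FPKM does not give the number of reads, but the ratios of low values put the libraries in an order of depth. Relative to the shallowest library, depth was 2.69 and 3.29 in knockout hindwings and 2.13 and 2.85 in knockout forewings, against 1.26 and 1.59 in wild-type hindwings and 1.37 and 1 in wild-type forewings. Every knockout library was thus deeper than every wild-type library, and low values in the knockouts came from the deeper libraries. Components above 0 numbered 26467 to 28231 per knockout library, against 17911 to 22540 per wild-type library. In whole wings, fewer cells of a type and less RNA per cell cannot be told apart.

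Of 5363 components with at least 5 FPKM in all wild types, 128 met the rule, 2.39% of them, and 801 (14.9%) had every knockout below every wild type by any margin. The mirrored rule, applied to components with at least 5 FPKM in all 4 knockouts, was met in the other direction by 137 of 6635 components, or 2.06%. A further 33 components had a gap of at least 1 but missed the minimum in a wild type. The median difference (log2, knockout minus wild type, mean of both wings) was -3.00 over the members and -0.02 over the 5363 components from which they were drawn. Together the members held 0.220% and 0.415% of total FPKM in knockout hindwings and 0.243% and 0.364% in knockout forewings. In wild-type hindwings they held 2.15% and 1.87%, and in wild-type forewings 2.30% and 1.74%. The median member stood at 1.99 to 2.55 FPKM in the knockout libraries and at 39.8 to 44.7 FPKM in the wild-type libraries.

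**Figure D1:**
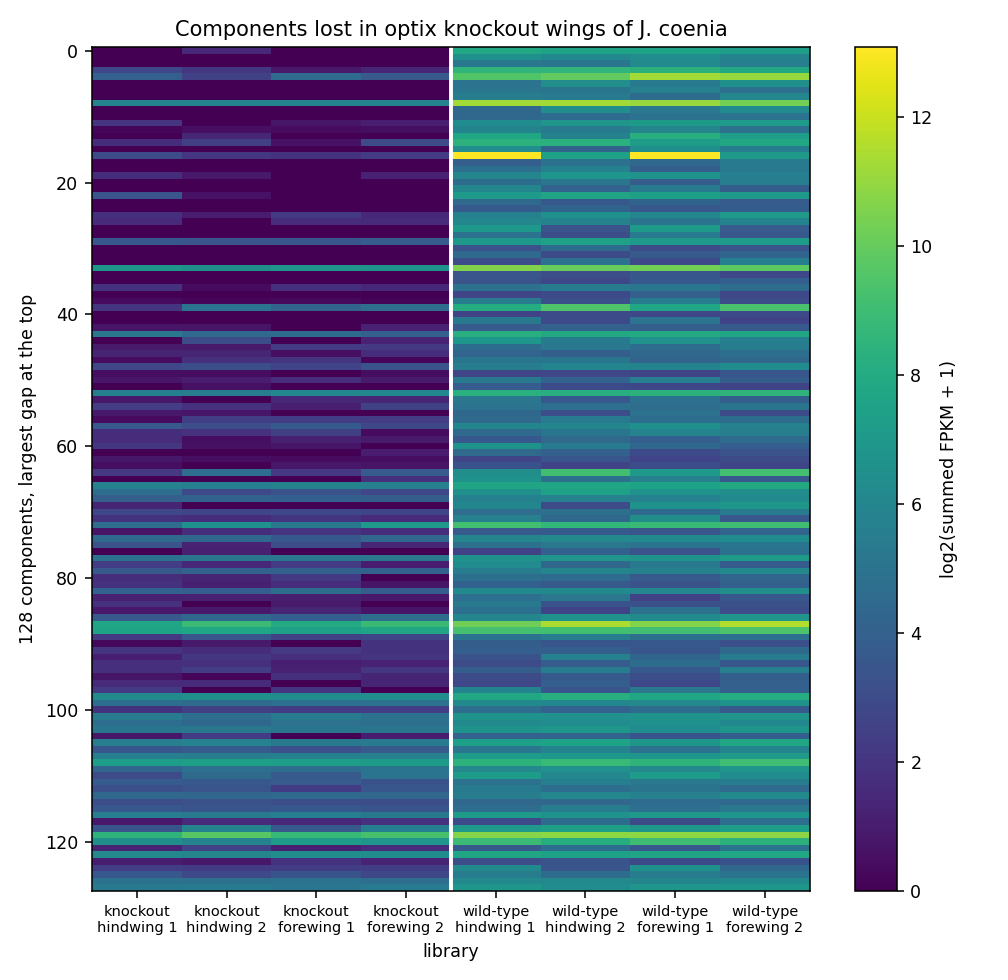
Abundance of the 128 members as log2(summed FPKM + 1), 1 line per component and 1 column per library, with the 4 knockout libraries left of the white line and the 4 wild-type libraries right of it. Members are ordered by gap. In each line the knockout columns are below the wild-type columns, and 23 lines are at 0 in all 4 knockouts.

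The members ranged from a listed value of 0 in all knockouts to partial reduction. In the knockouts 23 members were listed at 0 in all 4 libraries, 24 were listed at 0 in 1 to 3 of them, and 81 were above 0 in all 4. The 23 listed at 0 throughout were of modest abundance in wild type, with means of 8.38 to 76.3 FPKM. In the other direction, 37 components had at least 5 FPKM in all knockouts and 0 listed in all wild types. An exact 0 in an FPKM table can be a failed estimate, so these members have no fold. The mean knockout level as a share of the mean wild-type level had a median of 7.38% over all members, with quartiles of 0.973% and 20.2%. The 23 members listed at 0 throughout entered these figures as 0%. The share was under 1% in 32 members, including these 23, under 10% in 75, and at least 25% in 22, with a maximum of 40.7%. The gap had a median of 1.81 (log2) and a maximum of 5.90, and 17 members had a gap of at least 4.

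The member with the largest gap, TRINITY_DN41136_c1, stood at 0 and 1.71 FPKM in knockout hindwings and at 0 in both knockout forewings, against 219 and 190.1 FPKM in wild-type hindwings and 189.7 and 161 FPKM in wild-type forewings. TRINITY_DN32618_c0 was listed at 0 in all 4 knockouts, against 95.3 and 68.0 FPKM in wild-type hindwings and 84.6 and 57.4 FPKM in wild-type forewings. TRINITY_DN26044_c0 was also listed at 0 in all knockouts, against 36.9 and 33.7 FPKM in wild-type hindwings and 76.7 and 47.9 FPKM in wild-type forewings. The wild-type libraries of these 3 components lay close together compared with their distance from the knockouts.

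TRINITY_DN27784_c0 was detected in every knockout at a trace, with 6.16 and 3.32 FPKM in hindwings and 0.838 and 1.69 FPKM in forewings. In wild type it stood at 376 and 395 FPKM in hindwings and 343 and 244 FPKM in forewings, so 0.884% of its wild-type mean was left. TRINITY_DN32573_c0 was among the abundant transcripts of the wild-type wing, at 746 and 997 FPKM in hindwings and 2453 and 2150 FPKM in forewings. Its knockout values were 14.9 and 5.03 FPKM in hindwings and 20.9 and 11.6 FPKM in forewings. Ranked by mean abundance among all components it was number 4921 in the knockouts and number 69 in wild type.

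TRINITY_DN46460_c6 had nearly the same level in every knockout, 59.7 and 57.0 FPKM in hindwings and 57.8 and 56.2 FPKM in forewings, against 2438 and 2437 FPKM in wild-type hindwings and 2138 and 1292 FPKM in wild-type forewings. The knockouts thus kept 2.78% of its wild-type mean. The remaining 4 of the 10 members with the largest gaps were listed at 0 in all knockouts. TRINITY_DN17542_c0 had 30.2 and 88.9 FPKM in wild-type hindwings and 43.0 and 95.1 FPKM in wild-type forewings. TRINITY_DN10866_c0 had 20.2 and 83.5 FPKM in wild-type hindwings and 36.1 and 79.0 FPKM in wild-type forewings. In both, the second wild-type library of each wing was the higher one. TRINITY_DN29464_c0 had 34.3 and 33.3 FPKM in wild-type hindwings and 51.4 and 27.5 FPKM in wild-type forewings. TRINITY_DN22403_c0 had 45.6 and 40.5 FPKM in wild-type hindwings and 23.8 and 65.2 FPKM in wild-type forewings. The lowest wild-type value among these 4 components was 20.2 FPKM.

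**Figure D2:**
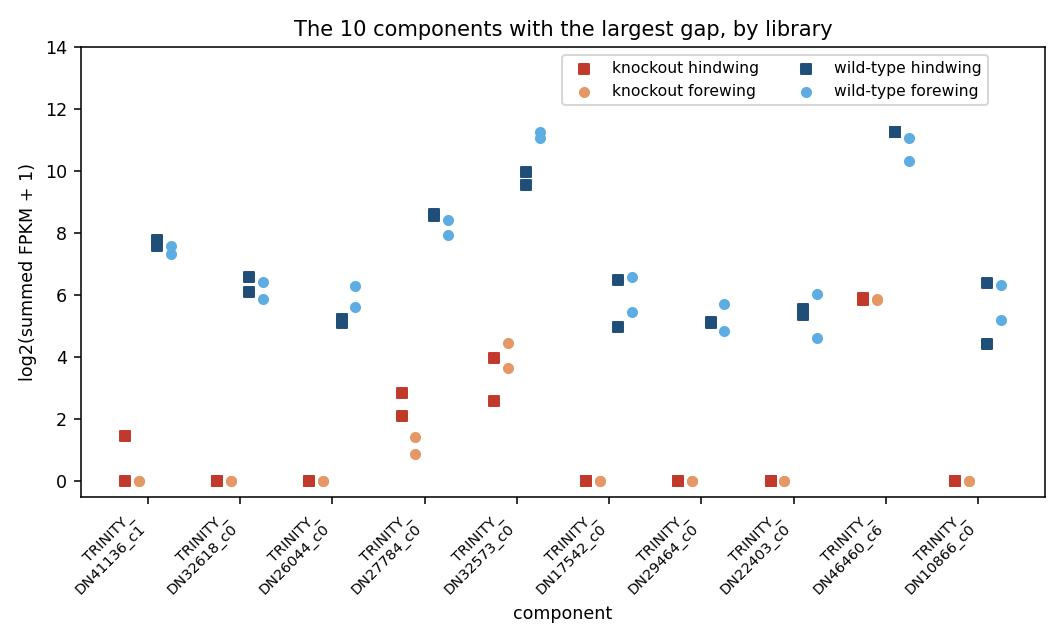
The 10 members with the largest gap, with 1 point per library on the scale log2(summed FPKM + 1), squares for hindwings and circles for forewings, knockouts left of wild types for each component. In 6 of the 10 all knockout points lie at 0, and TRINITY_DN32573_c0 shows its forewing points above its hindwing points in wild type.

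Among the members, 6 averaged at least 1000 FPKM in wild type, 34 at least 100 FPKM and 8 under 10 FPKM. The median of the wild-type mean was 40.9 FPKM, against 24.5 FPKM over the 5363 components from which the members were drawn. The highest wild-type mean belonged to TRINITY_DN17519_c0, which was also the member least evenly expressed in wild type. It stood at 7.10 and 3.26 FPKM in knockout hindwings and 2.81 and 3.76 FPKM in knockout forewings, against 8384 and 181 FPKM in wild-type hindwings and 8679 and 135 FPKM in wild-type forewings. The first wild-type library of each wing was far above the second, and both were above all knockouts.

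TRINITY_DN44369_c5 and TRINITY_DN45578_c18 were abundant in wild type and remained abundant in the knockouts. TRINITY_DN44369_c5 had 206 and 483 FPKM in knockout hindwings and 252 and 451 FPKM in knockout forewings, against 1212 and 2883 FPKM in wild-type hindwings and 1588 and 3078 FPKM in wild-type forewings. TRINITY_DN45578_c18 had the highest knockout mean of the set, with 367 and 812 FPKM in hindwings and 441 and 620.2 FPKM in forewings, against 1687 and 1862 FPKM in wild-type hindwings and 1855 and 1765 FPKM in wild-type forewings. In both components the second knockout library of each wing was higher than the first. TRINITY_DN23532_c1 kept 32.8% of its wild-type mean, with 195 and 204 FPKM in knockout hindwings and 169 and 213 FPKM in knockout forewings, against 599 and 553 FPKM in wild-type hindwings and 535 and 688 FPKM in wild-type forewings.

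The largest share left in the knockouts was 40.7%, in TRINITY_DN38727_c0, at 29.2 and 27.4 FPKM in knockout hindwings and 30.1 and 25.4 FPKM in knockout forewings, against 69.3 and 70.3 FPKM in wild-type hindwings and 61.5 and 74.5 FPKM in wild-type forewings. Its gap of 1.01 put it just inside the rule, as did the gap of 1.003 of TRINITY_DN31060_c0. That component stood at 37.6 and 40.7 FPKM in knockout hindwings and 33.7 and 40.1 FPKM in knockout forewings, against 114 and 82.6 FPKM in wild-type hindwings and 110.4 and 121 FPKM in wild-type forewings. TRINITY_DN49481_c0 kept 37.4% and TRINITY_DN26022_c0 kept 37.3% of the wild-type mean.

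Just outside the rule, TRINITY_DN44971_c0 had a gap of 0.996, with 3.16 and 4.03 FPKM in knockout hindwings and 4.25 and 3.00 FPKM in knockout forewings, against 13.9 and 9.48 FPKM in wild-type hindwings and 19.5 and 9.47 FPKM in wild-type forewings. TRINITY_DN33696_c0 had a gap of 0.982, with 18.2 and 52.3 FPKM in knockout hindwings and 22.3 and 43.5 FPKM in knockout forewings, against 111 and 104 FPKM in wild-type hindwings and 139 and 135 FPKM in wild-type forewings. The members nearest to the limit therefore differ little from components left out.

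Each member was lower in the knockouts in both wings, as the rule requires, and the size of the difference was similar between the wings in most of them. On the log2(sum + 1) scale the median difference (knockout minus wild type) was -3.00 in the hindwing and -2.98 in the forewing. The range was -7.72 to -1.15 in the hindwing and -7.99 to -1.23 in the forewing. The difference was larger in the hindwing in 59 members and larger in the forewing in 69. In 114 members the values of the wings lay within 1 (log2) of each other, and in 14 they were farther apart. Across the 128 members the differences in the wings correlated at r = 0.90, given as a description: members are not independent replicates, and same-numbered wings may come from 1 animal. The rule also used these values and required a gap over both wings, so some likeness of the wings is built in. The correlation over the components from which the members were drawn was not computed. The share left in the knockouts had a median of 7.05% in the hindwing and 7.65% in the forewing.

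**Figure D3:**
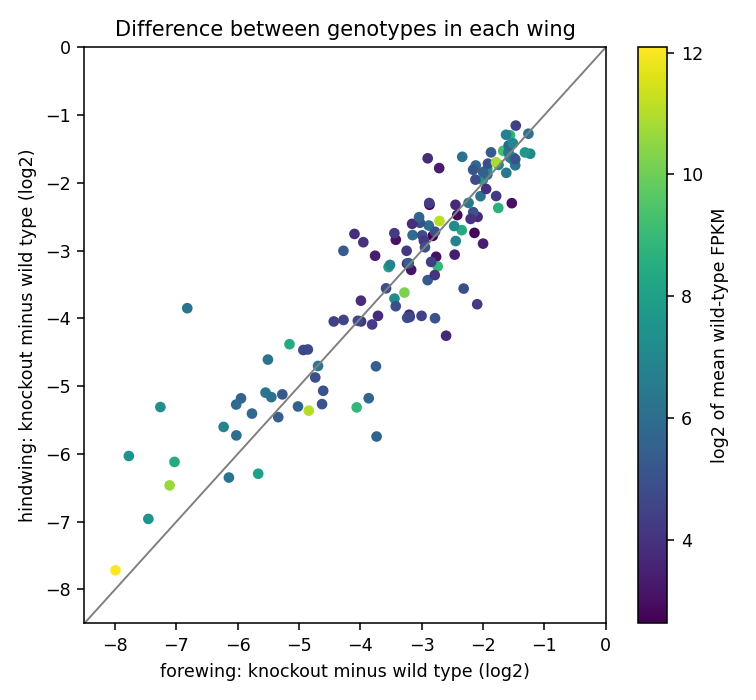
Difference between knockout and wild type (log2) of each of the 128 members, in the hindwing on the vertical and in the forewing on the horizontal axis. The line marks equal differences and the colour gives the log2 of the mean wild-type FPKM. Most points follow the line, with TRINITY_DN20475_c0 the farthest above it.

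When the rule was applied to the 4 libraries of each wing alone, 260 components passed in the hindwing and 313 in the forewing. Of these, 145 passed in both, which is 55.8% of the hindwing list and 46.3% of the forewing list. The 128 members are the part of these 145 for which the weakest wild-type wing of either kind also cleared the strongest knockout wing of either kind.

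The difference between hindwing and forewing was tested with limma across 17014 components with a mean of at least 1 FPKM, which included all 128 members. The rule set no limit on this difference, but a large one narrows the gap, which is taken over both wings. The wing values of the members are therefore not independent of how they were chosen. No component passed in wild type at an adjusted p of 0.05 (0.00%, smallest adjusted p = 0.815, Benjamini-Hochberg), and 444 had an unadjusted p under 0.05 (2.61%). The members contributed 3 of these, 2.34% of the set. In the knockouts 0.00% passed as well, with 83 components (0.488%) at an unadjusted p under 0.05, of which 3 were members, 2.34% of the set. For the mean wing difference over both genotypes 0.00% passed (limma), with 261 components (1.53%) and 5 members (3.91% of the set) at an unadjusted p under 0.05. Without any wing difference, 851 of the 17014 components would be expected at that unadjusted p in each contrast, more than were found. The counts found depend on how same-numbered wings are treated and on how the spread is estimated. They come from a model that does not pair these wings and shares 1 estimate of the spread between the genotypes. The SE and p-values of the members named below come from it too. With the 4 libraries of each genotype fitted alone, 197 of 16991 components had an unadjusted p under 0.05 in wild type (limma). In the knockouts 281 of 16901 had one, so the order of the genotypes depends on the shared spread. With genotype and number as a correlated replicate block, 8 of the 17014 components and 0 members passed in wild type (limma). An unadjusted p under 0.05 was reached there by 1470 components, and by 7 of the 128 members. In the knockouts that block gave 530 components and 11 of the 128 members at an unadjusted p under 0.05. For the mean over both genotypes it gave 1141 and 11, with 0 called in either contrast. Whether these shares of the set differ from those of all components was not tested. With 2 libraries per group and wild-type replicates as far apart as these, the lack of calls does not show that the wings were alike.

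The median wing difference of the members (log2, hindwing minus forewing) was 0.00 in the knockouts, where 23 members were listed at 0 in every library, and -0.04 in wild type. Wild-type hindwings did not overlap wild-type forewings and were higher in 13 members, or 10.2%, against 8.29% of all tested components, and were lower in 11 members, or 8.59%, against 7.75%. In the knockouts the hindwings were higher without overlap in 13 members, against 11.2% of all tested components, and lower in 12 members, 9.38% of the set, against 10%. The shares without overlap lie near those of all components. The 23 members listed at 0 in every knockout could show no wing difference there. They still count in the knockout shares of the set, by overlap and by p-value. Without regard to sign, the median wing difference in wild type was 0.22 (log2) over the members and 0.30 over all tested components. The tested components did not have to meet the wild-type minimum of the rule or its gap. For these wing values, no comparison was made with the components from which the members were drawn. The smaller median is therefore not shown to be particular to the members.

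The individual wing differences named here had the smallest unadjusted p among members in each direction, and none was called. In wild type TRINITY_DN46613_c5 had 26.5 and 35.2 FPKM in hindwings and 5.07 and 10.8 FPKM in forewings, a difference of 1.90 (log2, SE 0.47, unadjusted p = 0.00553, limma; adjusted p = 0.967). In the knockouts it was at 1.27 and 1.29 FPKM in hindwings and 1.13 and 0.839 FPKM in forewings. Its wild-type wing difference lay on row g2, at 20.4 and 31.5 FPKM in hindwings and 0 and 7.42 FPKM in forewings. Row g2 was listed at 0 in all knockouts. Row g1 overlapped between the wild-type wings, at 6.09 and 3.74 FPKM in hindwings and 5.07 and 3.35 FPKM in forewings. TRINITY_DN32573_c0 was lower in the wild-type hindwing, with a difference of -1.41 (log2, SE 0.55, unadjusted p = 0.038, limma; adjusted p = 1), and its mean difference over both genotypes was -1.09 (SE 0.39, unadjusted p = 0.0274). Its hindwing libraries stood below its forewing libraries in wild type without overlap, and in the knockouts the wings overlapped.

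Among the knockout wings, TRINITY_DN27784_c0 was higher in the hindwing by 1.32 (log2, SE 0.42, unadjusted p = 0.0175, limma; adjusted p = 1). TRINITY_DN40158_c0 was lower in the knockout hindwing, with a difference of -1.37 (log2, SE 0.45, unadjusted p = 0.0199, limma; adjusted p = 1), with 0.931 and 0.858 FPKM in knockout hindwings and 4.04 and 3.73 FPKM in knockout forewings. Its wild-type wings overlapped, at 23.3 and 36.7 FPKM in hindwings and 24.3 and 43.5 FPKM in forewings.

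**Figure D4:**
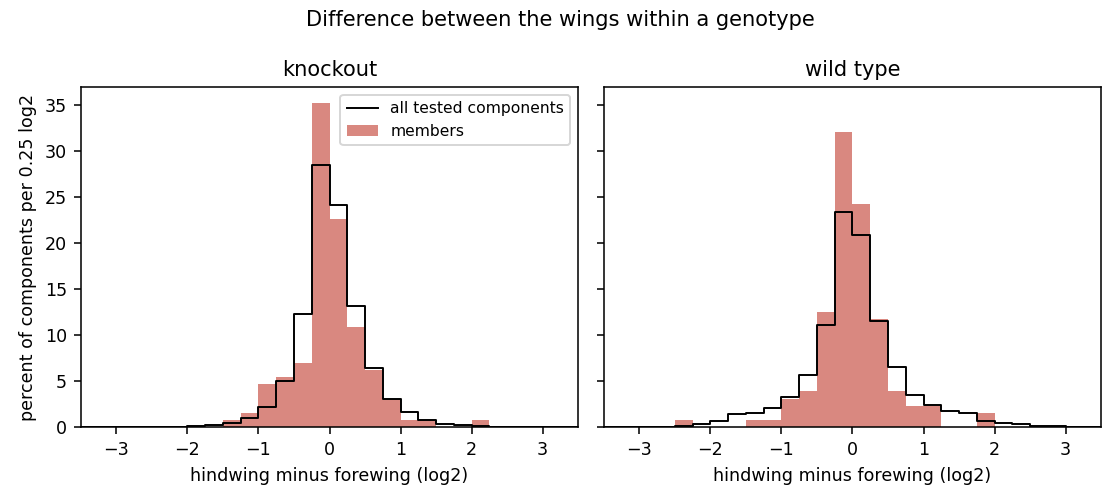
Difference between hindwing and forewing (log2) within the knockouts, left, and within wild type, right, as the percent of components per bin of 0.25. Bars are the 128 members and the line is all 17014 tested components. Both are centred near 0, and the 23 members listed at 0 in every knockout fall in the bin that ends at 0.

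The difference between the genotypes was compared between the wings as an interaction, the knockout effect in the hindwing minus that in the forewing. For the members this contrast uses the values on which they were chosen. No component passed (limma, 0.00%), and 249 had an unadjusted p under 0.05, or 1.46%, including 1 member, 0.781% of the set. With the correlated replicate block 1006 components and 6 members had one, and 0 were called. The member without the block was TRINITY_DN46613_c5, with a larger difference in the hindwing and an interaction of -1.70 (log2, SE 0.66, unadjusted p = 0.0399, limma; adjusted p = 1). Its row g2, listed at 0 in the first wild-type forewing, carried 76.5% of its wild-type sum. The largest interaction among members in the other direction was 2.97 (log2, SE 1.38, unadjusted p = 0.0706, limma; adjusted p = 1), in TRINITY_DN20475_c0. This component was at 1.52 and 0 FPKM in knockout hindwings and 0 in both knockout forewings, against 64.1 and 7.06 FPKM in wild-type hindwings and 103 and 122 FPKM in wild-type forewings. The 7.06 FPKM lay on its row g1, listed at 0 in all other libraries. Row g2, with 97.6% of the wild-type sum, was listed at 0 in the second wild-type hindwing and alone did not meet the rule. Without the second wild-type hindwing library the interaction was 1.47, and without the first it was 4.48, with neither called.

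Levels within a genotype varied among replicates. In knockout hindwings the replicates differed by more than 1 (log2) in 29 members and in knockout forewings in 22, against 36 in wild-type hindwings and 34 in wild-type forewings. In the knockouts 8 members, 6.25% of the set, had such a difference in both wings in the same direction. In wild type 25 members did, 19.5% of the set, with the first library higher in 14 and the second in 11. Over the 5363 components from which the members were drawn the shares were 9.04% in the knockouts and 21.8% in wild type. No member had wild-type replicates that far apart in opposite directions in the 2 wings. The labels call the replicates biological and do not say whether same-numbered wings belonged to 1 animal, so p-values measure the spread between these libraries.

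Most members were a single assembled row. There were 74 members, or 57.8%, with 1 row above 0, against 31.0% of the components from which they were drawn. The other 54 members held 182 rows above 0, up to 7 each. Of these rows, 95 had every knockout below every wild type, 83 overlapped between the genotypes, and 4 had every knockout above every wild type. A row moving against its sum was seen in TRINITY_DN48145_c2, whose row g1 was at 2.56 and 1.06 FPKM in knockout hindwings and 3.72 and 1.85 FPKM in knockout forewings, and listed at 0 in all wild types. Its row g2 was listed at 0 in all knockouts, against 51.9 and 93.0 FPKM in wild-type hindwings and 65.5 and 134 FPKM in wild-type forewings. Within this member the knockouts and the wild types thus had reads on different rows.

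TRINITY_DN46460_c6 likewise held a row g1, which carried 98.7% of its wild-type sum, and a minor row g2 with every knockout above every wild type. Row g2 was at 38.7 and 38.2 FPKM in knockout hindwings and 39.8 and 41.4 FPKM in knockout forewings, against 34.2 and 20.8 FPKM in wild-type hindwings and 27.6 and 22.4 FPKM in wild-type forewings. Most of what was left of this component in the knockouts lay on row g2. In TRINITY_DN51244_c2, row g1 was at 4.64 and 12.4 FPKM in knockout hindwings and 7.51 and 13.6 FPKM in knockout forewings, against 0 and 0.735 FPKM in wild-type hindwings and 0 in both wild-type forewings. Its row g3, with 88.2% of the wild-type sum, was listed at 0 in 3 of the knockouts and at 1.94 FPKM in the second knockout forewing.

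The assembler's DN number groups components, and the members came from 127 DN numbers. No other component of the DN number was above 0 for 90 members, so their loss has no counterpart under the same number. For 38 members at least 1 other component was above 0. When all components of the DN number were summed, 19 of these 38 still had a gap of at least 1, another 11 had a smaller gap above 0, and in 8 the genotypes overlapped or touched. For TRINITY_DN41136_c1 the gap was 0.21 (log2) by DN number and 5.90 by component. Under the same number, TRINITY_DN41136_c4 was at 219 and 293 FPKM in knockout hindwings and 229.9 and 283 FPKM in knockout forewings, against 156 and 479 FPKM in wild-type hindwings and 152 and 511 FPKM in wild-type forewings. The level of that second component overlapped between the genotypes.

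Of 83 other components of these DN numbers with a mean of at least 1 FPKM, 58 had a higher mean in the knockouts (log2), or 69.9%, against 58.6% of all tested components. Their median difference was 0.54 (log2, knockout minus wild type), against 0.17 over all tested components. In 14 of them every knockout was above every wild type, 16.9% against a background of 10%. In 9, or 10.8%, the distance was at least 1 (log2), against 1.96% of all tested components. These 9 stood under the DN numbers of 8 members. Some of the 9 were low in the knockouts and near 0 in the wild types, whose libraries were the shallower ones. The background was not limited to components that share a DN number with another, so the excess is not shown to be particular to the members. Shared sequence between such components was not tested.

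Some examples, chosen after their values were seen, were DN numbers under which 1 component was low in the knockouts and another was listed at 0 in wild type. TRINITY_DN51065_c2, a member, stood at 2.22 and 2.69 FPKM in knockout hindwings and 4.57 and 0.315 FPKM in knockout forewings, against 21.5 and 33.0 FPKM in wild-type hindwings and 57.4 and 46.1 FPKM in wild-type forewings. TRINITY_DN51065_c1 was at 44.8 and 54.2 FPKM in knockout hindwings and 38.2 and 46.7 FPKM in knockout forewings, and listed at 0 in all 4 wild types. The number DN46613 held 2 members, TRINITY_DN46613_c3 and TRINITY_DN46613_c5, and a further component, TRINITY_DN46613_c7, with 8.88 and 14.3 FPKM in knockout hindwings and 12.5 and 16.6 FPKM in knockout forewings, also listed at 0 in all wild types. For these members the sums by DN number overlapped between the genotypes, so their loss is a statement about the assembled component and not about the whole DN number.

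**Figure D5:**
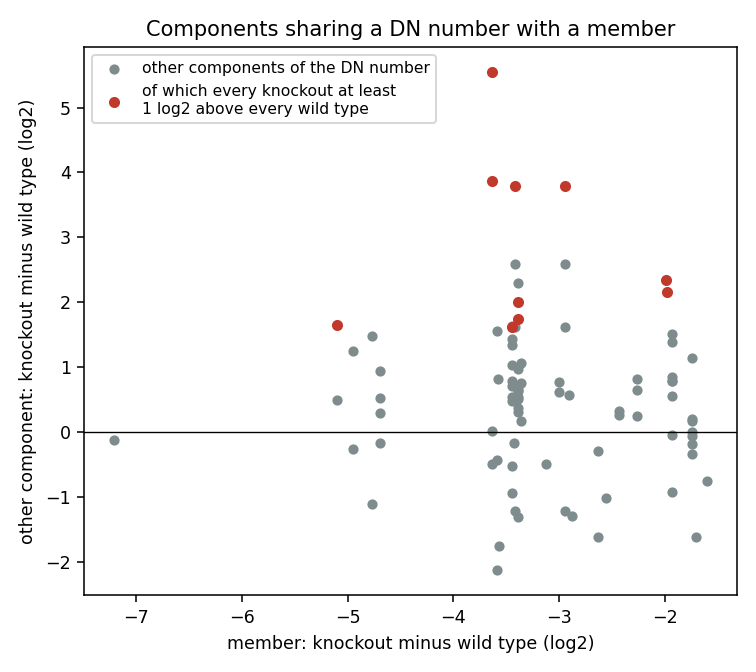
Components with a mean of at least 1 FPKM that share a DN number with a member, drawn once for each member (87 points). The horizontal axis gives the member's difference between knockout and wild type and the vertical axis that of the other component (both log2). Points in red, 9 components, have every knockout at least 1 above every wild type, while the members all lie below 0.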

How the data were processed

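RNA-seq libraries of J. coenia wings were made from poly(A) RNA with 15 PCR cycles and read as pairs of 36 bp, per the labels' protocols. The authors deposited FPKM values per assembly row. Bowtie2 is named in the submitters' processing notes, and Trinity by the prefix of the identifiers. For the quantification program, the versions and a scaling across libraries, the sources used here give nothing. Since FPKM divides by library size, a few abundant transcripts shift all others.

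From the deposited FPKM, rows sharing DN and c numbers were summed and the rule stated with the results was applied. The members and lists were chosen with earlier results of these data known. Identifiers were looked up among 15000 V. cardui genes (assembly ilVanCard2.1), with 0 matches. Relative depth was fitted to the ratio peaks of values under 0.6 FPKM in all 28 pairs of libraries, and every pair lay within 0.09 (log2) of the fit. It gives no counting interval.

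The wings were tested on log2(sum + 1) with limma 3.58.1 (R 4.3.3), which understates changes of low components. A model of 4 group means over the 8 libraries was fitted with empirical Bayes moderation and a trend, for components with a mean of at least 1 FPKM. P-values are two-sided, Benjamini-Hochberg adjusted over all tested components and called at 0.05. The fit was tested on simulated data. Members were named by gap (the 10 largest), wild-type mean (5), knockout mean (3), share left (3), position next to the limit, smallest wing p in each direction where none was called, and rows moving against their sum (3). The alternatives were other pseudocounts, filters and scalings, the replicate number as a block, single wings, single rows, sums by DN number and leaving out each library. For the wing tests each genotype was also fitted alone. A fixed block of genotype and number was added after seeing the data.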

Additional observations from a re-analysis of the deposited data

How the results depend on the processing

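The rule was rerun with other choices. Single wings gave 260 components in the hindwing and 313 in the forewing. A wild-type minimum of 1 FPKM gave 161, one of 10 FPKM 97, a pseudocount of 0.1 136, single rows 173 and sums by DN number 111. Leaving out 1 library at a time gave 137 to 162, always including all 128 members, since removing a library can only widen the gap. Quantile normalization kept 119 of the 128 among 124 that passed, and median-of-ratios scaling kept 128 among 144. The median of all tested components, 0.17 (log2, knockout minus wild type), was 0.09 and 0.08 under these scalings, and that of the members -3.11 and -3.09. Under the pseudocount of 0.1 and both scalings the gaps of the 23 named members stayed above 0, the lowest at 0.27 (log2, quantile normalization, TRINITY_DN45578_c18). Summed by DN number, the genotypes overlapped or touched for 8 of the 38 members with other components above 0. Of the wing contrasts, 0 members were called under any alternative. With genotype and number as a correlated replicate block (estimated correlation 0.693), 8 components were called between wild-type wings, 0 of them members, and with a replicate block of number or a fixed one 0 were called in any contrast. The fixed block, added after seeing the data, gave 1344 of the 17014 components with an unadjusted p under 0.05 between wild-type wings. Between knockout wings it gave 663. These included 8 and 14 of the 128 members. Leaving out 1 library called 0 each time. Deviations of same-numbered libraries correlated at 0.646 between the wings in knockouts, 0.657 in wild type, and 0.169 to 0.277 between genotypes. With 2 libraries per group the numbers were not taken as pairs. The number of reads is unknown, so levels near 0 have no counting limit.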
